A study of Drosophila melanogaster with 17 samples.

Results

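Neuropeptide precursors are the genes whose products are cut into the peptide hormones and peptide co-transmitters of neurons and endocrine cells. A list of 42 such genes of *Drosophila melanogaster* was drawn up by name, in 8 groups by the best known role of their peptides, and all 42 were found among the 16977 genes of the count tables.

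A neuropeptide is made as part of a longer precursor that enters the secretory pathway, where it is cut by prohormone convertases, trimmed, and often amidated at its C terminus. The mature peptides are stored in dense core vesicles and act mostly on G protein-coupled receptors, at the synapse or at a distance through the haemolymph. In flies, most of these genes are switched on strongly in a few identified neurons or endocrine cells and are nearly silent elsewhere.

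RNA bound to Flag-tagged ribosomes was pulled down by translating ribosome affinity purification (TRAP) and sequenced in 3 tissues. The question asked of each tissue was which RNAs were higher in the TRAP samples than in a control that carried the transgene without a driver. In heads, 3 TRAP samples were DIP-gamma-GAL4/UAS-Flag-GFP-RpL10 and 3 controls were UAS-Flag-GFP-RpL10/+, all from pooled 2 day old males. In larval axonal sections, 3 TRAP samples were OK371-GAL4/UAS-Flag-GFP-RpL10 and 3 controls were UAS-Flag-GFP-RpL10/+, from pooled L3 larvae. In legs, 3 TRAP samples were DIP-gamma-GAL4/UAS-Flag-GFP-RpL10 and 2 controls were UAS-Flag-GFP-RpL10/+, from pooled 2 day old flies of both sexes.

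DIP-gamma-GAL4 follows the gene of an immunoglobulin-domain protein found in a restricted subset of motor neurons and in other neurons of the head. OK371-GAL4 is an enhancer trap in the vesicular glutamate transporter gene and is active in motor neurons. The larval sections were dissected and the legs were sieved from frozen flies, so that motor axons remained while the cell bodies were removed. The transgene is leaky, so the controls also gave tagged ribosomes, which are not tied to one cell type. Each library was 1 sample of pooled animals. A difference between TRAP and control compares the 2 sets of tagged ribosomes, and in such pooled tissue fewer cells of a type and less RNA per cell cannot be told apart.

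The libraries held 29512310 to 88324615 counts, so that 3 counts, taken as the limit of detection, as CPM (counts scaled to a library of 1000000) came to at most 0.102 CPM in any head library, 0.0728 in any larval library and 0.0455 in any leg library. These limits cover counting error only. Of the larval libraries, TRAP replicate 2 and control replicate 1 had no count for 6086 and 5504 genes, against 782 to 3163 in the other 4, and 25 and 21 of the 42 precursors were at 0 in them. In heads, 6 of 7 neuronal marker genes and 4 of 4 neurotransmitter marker genes were higher in TRAP, against 7.23% of all genes. In larval sections and legs none of these 11 markers passed the test, where only 0.234% and 0.113% of all genes were called higher. In larval TRAP samples 6 of 6 salivary gland marker genes were higher, with a summed level of 4228 to 17332 CPM against 67.1 to 177 CPM in larval controls.

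In heads, 22 of the 42 precursors were higher in TRAP samples than in controls and 1, Nplp3, was lower. Of all 16638 genes tested in heads, 7.23% were higher and 9.41% were lower by the same test, edgeR's quasi-likelihood test with a Benjamini-Hochberg adjusted p under 0.05 over all genes tested. The median log2 fold change was 2.14 over the 42 precursors and 0.32 over all genes. The 22 were spread over 7 of the 8 role groups. All 5 diuretic and antidiuretic precursors and all 3 muscle-acting precursors were among them, along with 8 of 15 feeding and brain-gut precursors, 3 of 6 insulin-like genes, and 1 each of the adipokinetic and corazonin pair, the clock and memory pair, and the 4 NPLP genes. None of the 5 ecdysis and tanning precursors passed.

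Markers of other cell types moved in the same head comparison. All 6 photoreceptor markers were higher in TRAP, with a summed level of 162 to 394 CPM in TRAP heads and 32.3 to 45.2 CPM in control heads. Of 7 gut and enteroendocrine markers 2 were higher, pros (edgeR adjusted p = 0.00806) and LManV (edgeR adjusted p = 0.0105). The gut list summed to 175 to 512 CPM in TRAP heads and 63.7 to 380 CPM in control heads. The genes alphaTry, betaTry, Jon99Ci, Jon65Aiv and Mal-A1 did not pass, with log2 fold changes of −0.330, −0.206, −0.275, −0.255 and 0.467. The rise was thus not shared by the whole gut list. Of 4 haemocyte markers 1 was higher, Pxn (log2 fold change 2.199, edgeR adjusted p = 0.00381). The haemocyte list summed to 53.9 to 82.4 CPM in TRAP heads and 18 to 29.7 CPM in control heads. Pxn alone reached 74.3 CPM. Hml, eater and NimC1 did not pass, with log2 fold changes of −0.342, −0.353 and 0.343, so the rise was not shared by the list. Of 6 fat body markers 1 was lower, the gene named to (log2 fold change −1.51), although the list summed to 540 to 678 CPM in TRAP heads and 384 to 466 CPM in control heads. In that list apolpp, which reached 365 CPM, did not pass (log2 fold change 0.68, edgeR adjusted p = 0.0648). Lsp2, fit, Yp1 and Yp2 did not pass either, with log2 fold changes of −0.029, 0.264, −2.21 and −1.80. No list had a marker at 0 in all 6 head libraries, and the part of these cells in the precursor levels was not tested.

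**Figure D1:**
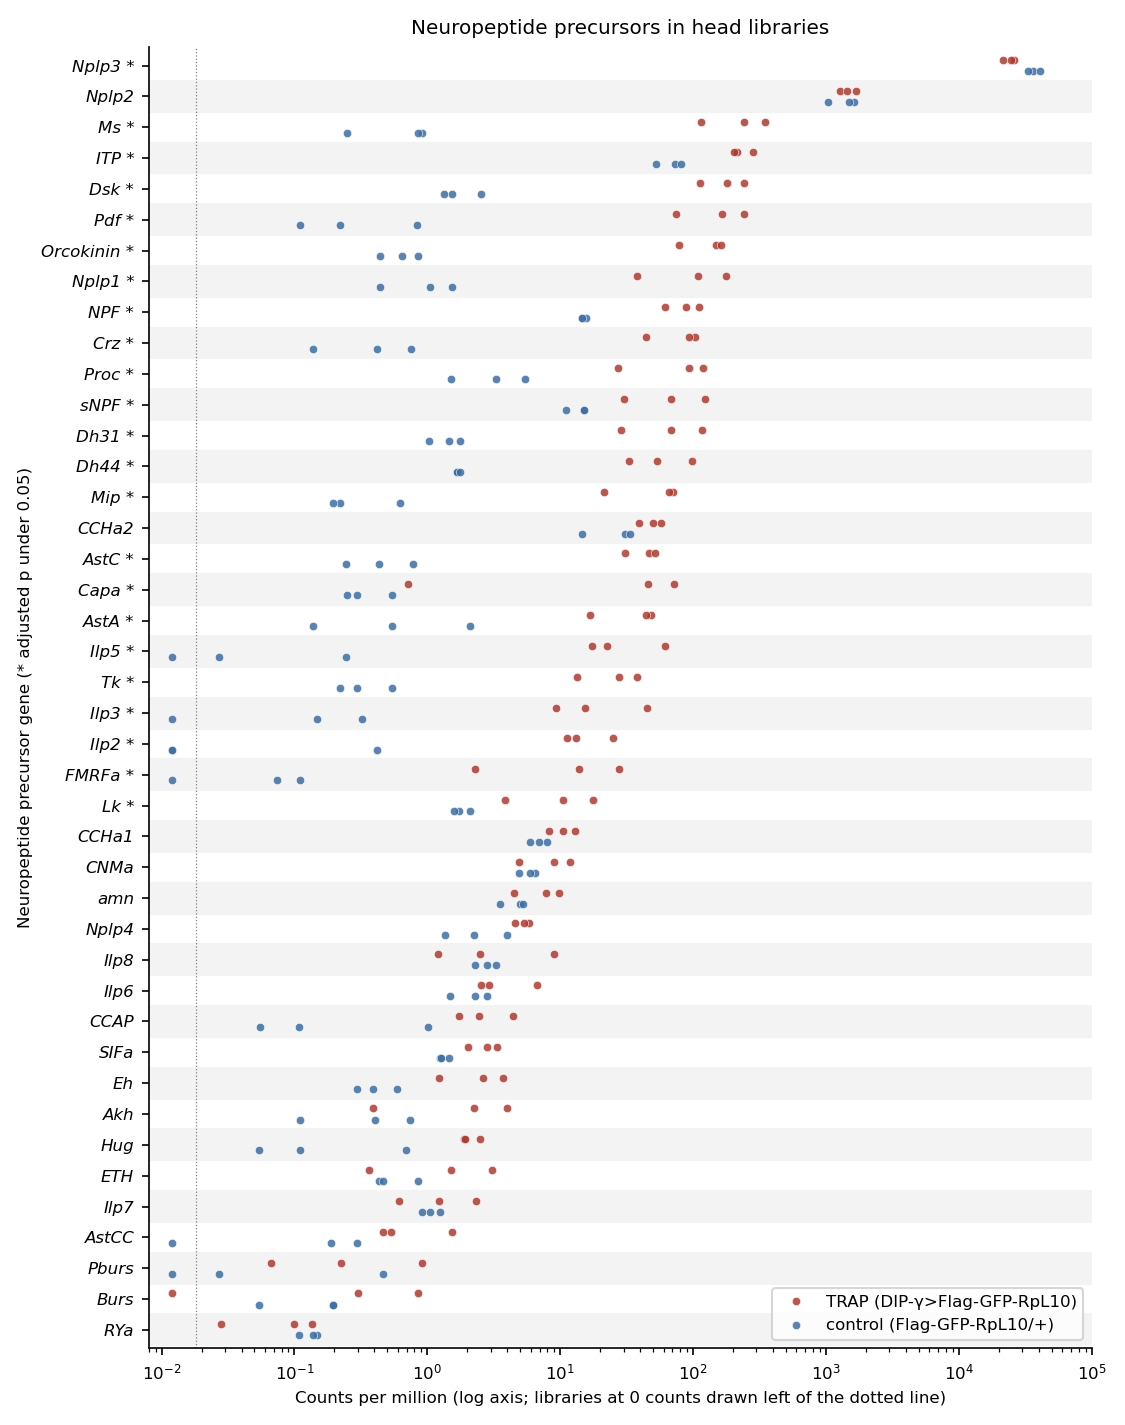
Level of each of the 42 neuropeptide precursors in every head library, in CPM on a log axis, with TRAP libraries in red above control libraries in blue and genes ordered by their mean in TRAP. The 3 TRAP points lie to the right of the 3 control points for all 22 genes marked as higher, and to the left for Nplp3, at the top.

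Most of the 22 were close to silent in the control heads. In 12 of them every control library was under 1 CPM, and in 18 every control library was under 3 CPM. In 13 of them the log2 fold change was at least 6. On the plain CPM scale every TRAP library was above every control for 30 of the 42, as for 33.3% of all genes, and below every control for 1, as for 6.52%. Levels given as CPM are counts divided by the library total, whereas log2 fold changes come from a fit with TMM scaling, so the ratio of 2 mean levels differs from the fitted fold.

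Pdf, the neuropeptide of the ventral lateral clock neurons, had 243, 166 and 74.9 CPM in TRAP heads, against 0.834, 0.220 and 0.111 CPM in control heads. It lies on chromosome 3R from 26455462 to 26456141 in the BDGP6 build. Its log2 fold change of 8.28 (SE 0.77, edgeR adjusted p = 0.000503) was the highest of the 42. The other member of its group, amn, whose product is needed for olfactory memory, had 4.51, 7.75 and 9.79 CPM in TRAP heads against 3.50, 5.02 and 5.26 CPM in control heads, and its groups overlapped (log2 fold change 0.16, edgeR adjusted p = 0.775).

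All 3 muscle-acting precursors rose. Ms, the precursor of myosuppressin, which slows the heart and visceral muscle, had 347, 240 and 114 CPM in TRAP heads and 0.915, 0.857 and 0.249 CPM in control heads, a log2 fold change of 8.00 (SE 0.65, edgeR adjusted p = 0.00034). It lies on 3R from 24341551 to 24343825. Proc encodes proctolin, a peptide that some motor neurons release to strengthen contraction. It had 120, 93.9 and 27.1 CPM in TRAP heads and 1.51, 3.28 and 5.45 CPM in control heads, a log2 fold change of 4.16 (SE 0.65, edgeR adjusted p = 0.00245). FMRFa encodes a set of related peptides that modulate muscle. It had 28.0, 13.9 and 2.27 CPM in TRAP heads, and in control heads it had 0, 3 and 4 counts, that is 0, 0.0735 and 0.111 CPM. No TRAP library of the 3 genes overlapped a control library, although for FMRFa the lowest TRAP library was 12.3 times below the highest.

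Of the insulin-like genes, 3 of 6 rose. Ilp2, Ilp3 and Ilp5 are made together in the insulin-producing cells of the brain and lie in a cluster on 3L, between 9799698 and 9823897. Ilp2 had 25.2, 13.1 and 11.2 CPM in TRAP heads and 0, 0.416 and 0 CPM in control heads. Ilp3 had 44.8, 15.3 and 9.35 CPM in TRAP heads and 0.323, 0.147 and 0 CPM in control heads. Each of the 3 TRAP libraries was far above each control for both genes, with log2 fold changes of 6.36 (SE 1.06, edgeR adjusted p = 0.00329) and 6.78 (SE 0.95, edgeR adjusted p = 0.00162). Ilp5 had 61.1, 17.3 and 22.4 CPM in TRAP heads and 0.0269, 0.245 and 0 CPM in control heads, a log2 fold change of 8.00 (SE 0.92). The other insulin-like genes did not pass. Ilp6, made mainly in fat body, Ilp7, made in neurons of the ventral nerve cord, and Ilp8, a relaxin-like signal of growing or damaged discs, had mean levels of 4.03, 1.39 and 4.20 CPM in TRAP heads against 2.19, 1.07 and 2.79 CPM in control heads.

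The positions of Ilp2 and Ilp3 matter for their reading. Both overlap CG32052, Ilp2 on the same strand and Ilp3 on the opposite strand. CG32052 was itself higher in TRAP heads, at a mean of 46.8 CPM against 1.15 CPM in control heads (log2 fold change 4.91, edgeR adjusted p = 0.000986). The strand setting of the counting is not given in the sources used here, so it is not known whether reads of genes that overlap on opposite strands were kept apart. For genes that overlap on the same strand, that setting would not separate them. Overlap was taken from whole gene spans, introns included. CG43897, opposite Ilp5, had a mean of 597 CPM in control heads, where Ilp5 had a mean of 0.0906 CPM. In TRAP legs CG32052 had a mean of 1.20 CPM, where Ilp2 and Ilp3 had no count. The part of overlapping reads in the head levels was not tested. Of the 23 precursors that passed in heads, 8 overlapped another gene model, 2 of them on the same strand, and 15 overlapped none. Apart from CG32052, a second model that overlaps a called precursor and was itself higher was CR44843, which overlaps Lk on the opposite strand (log2 fold change 1.86, edgeR adjusted p = 0.0321). The gene opposite ITP, CG4622, was lower in TRAP heads (log2 fold change −0.91, edgeR adjusted p = 0.0107).

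Crz encodes corazonin, a stress-linked peptide related to the adipokinetic hormone and made in a few brain neurosecretory cells. It had 104, 93.1 and 44.6 CPM in TRAP heads and 0.753, 0.416 and 0.138 CPM in control heads, a log2 fold change of 7.08 (SE 0.61, edgeR adjusted p = 0.000392). Its partner in the group, Akh, the lipid-mobilising hormone of the corpora cardiaca, had 0.390, 2.26 and 4.0 CPM in TRAP heads and 0.404, 0.735 and 0.111 CPM in control heads. The Akh groups overlapped and it did not pass (edgeR adjusted p = 0.273).

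The diuretic and antidiuretic precursors all rose, by sizes that differed widely. Capa, whose peptides act on the Malpighian tubules, had 72.1, 45.6 and 0.712 CPM in TRAP heads and 0.296, 0.539 and 0.249 CPM in control heads. TRAP replicate 3 was barely above the controls, and the log2 fold change of 6.37 carried the largest standard error of the group, 1.33 (edgeR adjusted p = 0.00965). Dh31 and Dh44, the calcitonin-like and CRF-like diuretic hormones, had 28.6 to 116 and 33.1 to 97.7 CPM in TRAP heads, against 1.03 to 1.77 and 1.67 to 1.77 CPM in control heads. Their log2 fold changes were 5.25 (SE 0.57) and 4.76 (SE 0.47). Lk, the precursor of leucokinin, had 17.7, 10.5 and 3.83 CPM in TRAP heads and 2.10, 1.74 and 1.58 CPM in control heads (log2 fold change 2.16, SE 0.57, edgeR adjusted p = 0.0277). ITP, an antidiuretic ion transport peptide made in clock and neurosecretory cells, differed from the rest in its level in controls. It had 284, 212 and 204 CPM in TRAP heads and 52.4, 73.4 and 81.5 CPM in control heads, a log2 fold change of 1.30 (SE 0.25, edgeR adjusted p = 0.00681).

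Among the feeding and brain-gut precursors, Orcokinin and Dsk had the lowest adjusted p-values. Dsk, the precursor of the cholecystokinin-like drosulfakinins, which promote satiety, had 242, 181 and 113 CPM in TRAP heads and 1.35, 2.52 and 1.52 CPM in control heads. Its log2 fold change was 6.19 (SE 0.45, edgeR adjusted p = 0.000184), and the gene lies on 3R from 4189692 to 4190260. Orcokinin had 149, 163 and 78.9 CPM in TRAP heads and 0.646, 0.857 and 0.443 CPM in control heads, with the lowest adjusted p of the 42 (log2 fold change 7.19, SE 0.45, edgeR adjusted p = 0.000172). Both genes overlap no other gene model.

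The allatostatin and tachykinin precursors, peptides shared by brain neurons and enteroendocrine cells, moved together. AstA had 48.5, 44.4 and 16.7 CPM in TRAP heads and 0.538, 2.08 and 0.138 CPM in control heads (log2 fold change 4.85, SE 0.83). AstC had 46.9, 51.3 and 30.5 CPM in TRAP heads and 0.430, 0.245 and 0.775 CPM in control heads (log2 fold change 6.03, SE 0.46). Its neighbour AstCC, which encodes a related peptide, had 0.529, 0.466 and 1.52 CPM in TRAP heads and 0.188, 0.294 and 0 CPM in control heads, and did not pass (edgeR adjusted p = 0.415). Mip, the allatostatin B precursor, had 71.0, 66.1 and 21.3 CPM in TRAP heads and 0.619, 0.220 and 0.194 CPM in control heads (log2 fold change 6.84, SE 0.67). Tk, the tachykinin precursor, had 38.0, 27.7 and 13.4 CPM in TRAP heads and 0.296, 0.539 and 0.221 CPM in control heads (log2 fold change 5.78, SE 0.57). No TRAP library of AstA, AstC, Mip or Tk overlapped a control.

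The neuropeptide F precursors were present in the controls as well. NPF, the fly relative of neuropeptide Y, had 112, 88.1 and 61.4 CPM in TRAP heads and 14.6, 15.5 and 14.5 CPM in control heads (log2 fold change 2.11, SE 0.29, edgeR adjusted p = 0.00142). The distinct gene sNPF, whose short peptides promote food intake, had 123, 68.7 and 30.5 CPM in TRAP heads and 11.1, 15 and 15.2 CPM in control heads (log2 fold change 2.02, SE 0.48, edgeR adjusted p = 0.0173). They had the smallest log2 fold changes of the 8 feeding and brain-gut precursors that rose. The other members with a mean of at least 10 CPM, CCHa2 and CCHa1, which encode peptides of gut and brain endocrine cells, had means of 48.6 and 10.6 CPM in TRAP heads against 26.4 and 6.93 CPM in control heads. Their log2 fold changes were 0.42 and 0.16, with edgeR adjusted p of 0.442 and 0.761.

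The remaining feeding and brain-gut precursors that did not pass were Hug, CNMa, SIFa and RYa, with mean levels of 2.10, 8.56, 2.73 and 0.0877 CPM in TRAP heads and 0.283, 5.75, 1.32 and 0.131 CPM in control heads. The ecdysis and tanning precursors, which time the shedding and hardening of the cuticle, were all low at this age. Burs and Pburs, the subunits of the tanning hormone bursicon, averaged 0.382 and 0.401 CPM in TRAP heads against 0.148 and 0.164 CPM in control heads. ETH and Eh, which trigger ecdysis, averaged 1.65 and 2.52 CPM in TRAP heads against 0.585 and 0.424 CPM in control heads. CCAP, a cardioactive peptide, averaged 2.87 CPM in TRAP heads against 0.389 CPM in control heads (log2 fold change 2.42, SE 1.09, edgeR adjusted p = 0.173). DESeq2 called 24 precursors higher, the same 22 with Eh and Hug added, and 12.1% of all genes. At an unadjusted p under 0.05 edgeR also gave these 24, against 14.6% of all genes, with 1 lower, against 15.2%.

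The NPLP genes were named for peptides found by mass spectrometry of nervous tissue, and they behaved unlike one another in heads. Nplp1 had 176, 108 and 37.7 CPM in TRAP heads and 1.53, 1.05 and 0.443 CPM in control heads, a log2 fold change of 6.32 (SE 0.71, edgeR adjusted p = 0.000779). Nplp3 had 21498, 26014 and 24882 CPM in TRAP heads and 36116, 33471 and 40592 CPM in control heads, so every TRAP library was below every control. Its log2 fold change was −1.08 (SE 0.20, edgeR adjusted p = 0.00566), but −0.61 with an adjusted p of 0.145 when libraries were scaled by their totals alone. Under that scaling all genes together had a median log2 fold change of 0.81, in place of 0.32. Nplp3 had the highest count of all 16977 genes in each of the 6 head libraries. It lies on 3L from 16318024 to 16318690 and overlaps no other gene model.

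Nplp2 had 1681, 1280 and 1450 CPM in TRAP heads and 1617, 1505 and 1035 CPM in control heads. Its groups overlapped, and the log2 fold change of −0.38 (SE 0.25, edgeR adjusted p = 0.333) changed sign to 0.09 when libraries were scaled by their totals. Nplp4 had 5.87, 5.32 and 4.61 CPM in TRAP heads and 4.01, 2.23 and 1.36 CPM in control heads (log2 fold change 0.59, edgeR adjusted p = 0.449). Muscle marker genes were lower in the same TRAP heads as Nplp3, 4 of 6 by the test, with a summed level of 3071 to 7056 CPM against 5641 to 9127 CPM in control heads. None of the 6 glial and none of the 5 epidermal and tracheal markers passed there. Whether any of these bears on Nplp3 was not tested.

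Per kilobase of merged exons, the scale on which levels of different genes can be set side by side, the order in TRAP heads was led by Nplp3 and Nplp2, at 44854 ± 4367 and 2411 ± 330 CPM per kb (SD, n = 3). Dsk followed at 314 ± 113, Pdf at 237 ± 123, Ms at 199 ± 98.9, NPF at 145 ± 42.1 and Crz at 123 ± 48.2 CPM per kb. Neighbours from Dsk down to Crz did not differ beyond their spread. The insulin-like genes came lower, with Ilp5 at 70.3 ± 50, Ilp3 at 30.8 ± 25.2 and Ilp2 at 24.6 ± 11.3 CPM per kb, which overlap as well. FMRFa was the lowest of the 22, at 10.3 ± 9.01 CPM per kb.

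The 3 TRAP head libraries were not alike in these genes. Replicate 1 was the highest of the 3 for 20 of the 22 precursors and replicate 3 was the lowest for 21. The level in replicate 1 over that in replicate 3 had a median of 2.99, with a range of 1.39 for ITP to 101 for Capa. Summed over the 22, which were selected as higher in TRAP, the level was 2565, 1842 and 980 CPM in TRAP heads and 93.4, 122 and 126 CPM in control heads. Over all 42 the sum was lower in TRAP heads, at 25849, 29236 and 27425 CPM against 37885, 35165 and 41796 CPM in control heads, and Nplp3 made up 83.2% to 90.7% of the precursor counts in TRAP heads and 95.2% to 97.1% in control heads. Without Nplp2 and Nplp3 the sum was 2669, 1942 and 1093 CPM in TRAP heads and 151, 190 and 170 CPM in control heads. The 7 neuronal markers summed to 2564, 2054 and 1189 CPM in the same TRAP libraries and to 454, 493 and 590 CPM in the controls, so they were in the same order among the TRAP libraries. Replicate 3 also had fewer genes at 0, 508 against 1160 and 2519. The part these library differences play in single precursors was not tested.

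**Figure D2:**
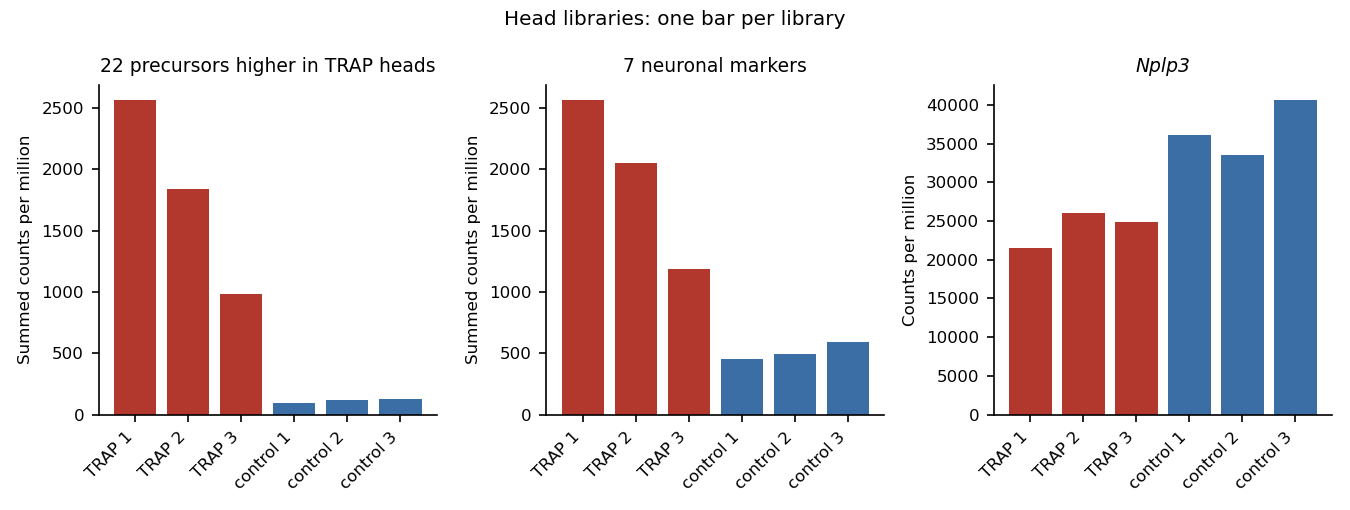
Summed CPM of the 22 precursors higher in TRAP heads, of the 7 neuronal markers, and the level of Nplp3, with 1 bar for each head library and TRAP in red. The 22 precursors sum to 980 to 2565 CPM in TRAP and 93.4 to 126 CPM in control heads, and the TRAP bars of the neuronal markers have the same order, whereas every TRAP bar of Nplp3 is below every control bar.

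Called members were not all equally firm. With any 1 head library left out, 19 to 22 precursors stayed above the threshold. Capa lost its call without control replicate 1 or 3 (edgeR adjusted p up to 0.0501), Lk lost it in 5 of the 6 such fits (edgeR adjusted p up to 0.0999), and sNPF in the 3 that left out a control (edgeR adjusted p up to 0.0777). In a single fit of all 3 tissues, which shares 1 estimate of the spread with the uneven larval libraries, 6 precursors passed: Crz, Dsk, Ilp5, Ms, Orcokinin and Pdf.

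Genes that process and release neuropeptides were examined as a list of 15. In heads, 8 of the 15 were higher in TRAP and 1 was lower, against 7.23% and 9.41% of all genes. The prohormone convertase amon had a mean of 145 CPM in TRAP heads against 23.3 CPM in control heads (log2 fold change 2.23, SE 0.46, edgeR adjusted p = 0.00872), and its helper protein 7B2 had 530 against 60.2 CPM (log2 fold change 2.73, SE 0.46). The carboxypeptidase svr and the amidating lyase Pal2 rose by 1.13 and 2.69 on the log2 scale. So did genes of dense core vesicles and their release, namely IA-2 by 3.67, Sytbeta by 2.72, Sytalpha by 1.37 and Cadps by 1.27. The glutaminyl cyclase QC fell by 1.29 on the log2 scale. Other enzymes of the pathway gave no call, among them the amidating hydroxylase Phm, at 207 CPM in TRAP heads and 156 CPM in control heads (log2 fold change −0.04). The transcription factor dimm, which marks peptidergic cells, averaged 3.57 CPM in TRAP heads and 0.418 CPM in control heads (log2 fold change 2.48, SE 0.95, edgeR adjusted p = 0.108).

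In the larval axonal sections no precursor was called higher or lower by edgeR's quasi-likelihood test. DESeq2 also gave 0 higher and 0 lower, but it returned no adjusted p for Proc, Mip and sNPF, so it could not call them. Of all 16702 genes tested there, edgeR called 0.234% higher and 0.012% lower, and DESeq2 called 1.05% higher and 0.168% lower. At an unadjusted p under 0.05, edgeR gave 4 precursors higher, Proc, Nplp4, AstA and Ilp6, and 0 lower, against 4.13% and 2.58% of all genes. The median log2 fold change was 0.75 over the precursors and 0.25 over all genes.

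Single libraries set the larger larval values. Proc had 93.2, 0.0539 and 0.146 CPM in larval TRAP samples and 0.0558, 1.81 and 0.644 CPM in larval controls. The first TRAP library was above every control and the other TRAP libraries were below at least 2 of the 3 controls. The log2 fold change was 5.02 (SE 1.60, edgeR adjusted p = 0.453), but −2.46 without TRAP replicate 1, and Proc was called higher when any 1 of TRAP replicates 2 and 3 and control replicates 2 and 3 was left out. AstA had 25, 1.28 and 1.24 CPM in larval TRAP samples and 1.23, 0.838 and 0.630 CPM in larval controls (log2 fold change 3.18, SE 1.18, edgeR adjusted p = 0.612). It was the only precursor with every TRAP library above every control, as were 2.45% of all genes, and 0 precursors had every TRAP library below every control, as did 9.72% of all genes, though the lowest TRAP and the highest control library of AstA differed by little. TRAP replicate 1 also had the highest neuronal marker sum, 357 CPM, against 9.47 and 46.9 CPM in the other TRAP libraries and 16.8 to 68.1 CPM in controls. It was the library with the fewest precursors at 0. The part of this in Proc and AstA was not tested.

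Nplp4 had the highest level per kilobase of the larval sections, a mean of 373 CPM per kb in TRAP samples and 139 CPM per kb in controls. It had 121, 210 and 260 CPM in TRAP samples and 138, 51.6 and 31.1 CPM in controls. Its groups overlapped through control replicate 1 (log2 fold change 1.87, SE 0.63, edgeR adjusted p = 0.516), and it was called higher without TRAP replicate 1. It was far lower in the adult tissues, with means of 5.27 CPM in TRAP heads and 3.42 CPM in TRAP legs. ITP had 41.3, 6.83 and 56.4 CPM in larval TRAP samples and 23.1, 48.6 and 57.4 CPM in larval controls. Ilp6 had 32.2, 7.01 and 13.0 CPM in TRAP samples and 5.58, 9.49 and 12.4 CPM in controls, and Nplp2 had 8.12 to 34.9 CPM in TRAP samples and 8.65 to 21.8 CPM in controls. In these 3 genes the groups overlapped. The other 36 precursors, apart from Proc and AstA, had group means under 4 CPM in both genotypes.

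In legs no precursor was called by edgeR's quasi-likelihood test. Of the 42, 36 were tested, since Ilp2, Ilp3, Burs, Pburs, Mip and FMRFa had no count in any of the 5 leg libraries. Of all 14200 genes tested in legs, 0.113% were higher and 0.12% were lower. At an unadjusted p under 0.05, edgeR gave 3 precursors higher, CNMa, Nplp1 and Nplp2, and 0 lower, against 4.68% and 4.41% of all genes. DESeq2 called 1 higher, CNMa, and 0 lower, against 2.39% and 1.65% of all genes, but it returned no adjusted p for Nplp1. The median log2 fold change was 0.12 over the 36 precursors and −0.01 over all genes.

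CNMa, whose peptide acts on its own receptor and is made in gut and brain cells, had 9.61, 12.1 and 12.4 CPM in TRAP legs and 4.60 and 6.83 CPM in control legs. Every TRAP library was above both controls, as in 11.9% of all genes (log2 fold change 1.0, SE 0.30, edgeR adjusted p = 0.260). Nplp1 had 0.546, 0 and 41.9 CPM in TRAP legs and 0.0247 and 0.542 CPM in control legs. Its log2 fold change of 5.66 (SE 2.47, edgeR adjusted p = 0.537) rested on TRAP replicate 3, and without that library it was −0.02.

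**Figure D3:**
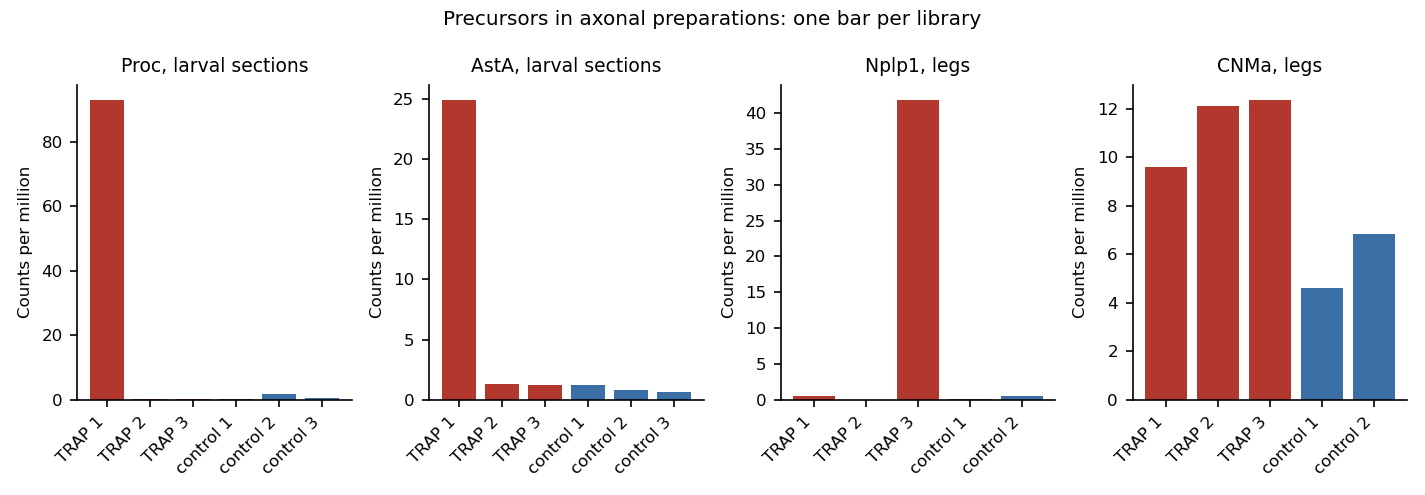
Level of Proc and AstA in each larval library and of Nplp1 and CNMa in each leg library, in CPM, with 1 bar for each library, TRAP in red and control in blue. A single TRAP library carries Proc (93.2 CPM), AstA (25 CPM) and Nplp1 (41.9 CPM), whereas the 3 TRAP bars of CNMa are all above both control bars.

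The leg preparations held 2 of the NPLP transcripts at high level in both genotypes. Nplp3 had 39372, 54782 and 44307 CPM in TRAP legs and 31146 and 39932 CPM in control legs, or 3.11% to 5.48% of a library, and had the highest count of all genes in 4 of the 5 leg libraries. Its groups overlapped (log2 fold change 0.38, SE 0.19, edgeR adjusted p = 0.612). Nplp2 had 2531, 2303 and 3190 CPM in TRAP legs and 1966 and 1600 CPM in control legs, with each TRAP library above both controls (log2 fold change 0.59, SE 0.20, edgeR adjusted p = 0.360). Epidermal and tracheal marker genes summed to 19262 to 24868 CPM in the TRAP legs and 11044 to 15486 CPM in the control legs, although none of the 5 passed the test, and their part in Nplp2 and Nplp3 was not tested. In larval sections Nplp3 was at most 0.274 CPM and was at 0 in 4 of the 6 libraries.

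Of the classical precursors, NPF, CCHa2 and ITP were the most abundant in legs per kilobase, with TRAP means of 23.5 ± 2.27, 21.9 ± 1.43 and 16.0 ± 0.913 CPM per kb (SD, n = 3). NPF had 12.6, 15.2 and 14.4 CPM in TRAP legs and 17.3 and 15.7 CPM in control legs, with every TRAP library just below both controls, as in 12.8% of all genes, and no call (log2 fold change −0.23, SE 0.20, edgeR adjusted p = 0.772). ITP had 71.0, 79.5 and 74.3 CPM in TRAP legs and 54.0 and 84.6 CPM in control legs. CCHa2 had 33.6, 29.6 and 32.6 CPM in TRAP legs and 46.7 and 17.3 CPM in control legs. For ITP and CCHa2 the 3 TRAP libraries lay between the 2 controls. In the control samples, which carry no driver, NPF averaged 14.9 CPM in heads and 16.5 CPM in legs, and ITP averaged 69.1 CPM in heads and 69.3 CPM in legs.

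**Figure D4:**
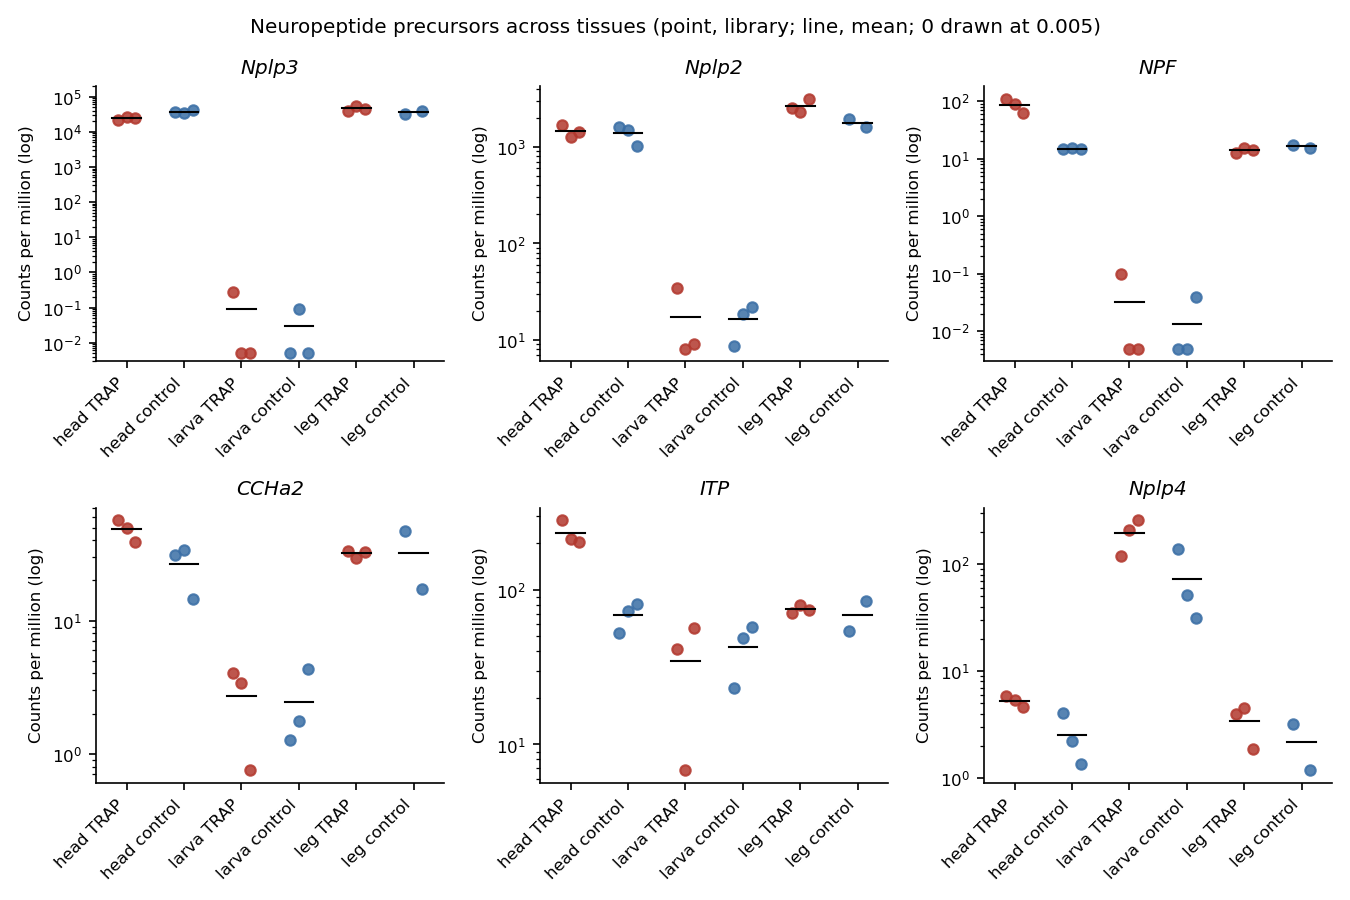
Level of Nplp3, Nplp2, NPF, CCHa2, ITP and Nplp4 in every library of the 3 tissues, in CPM on log axes, with TRAP left of control in each tissue, points for libraries and lines for means. Nplp3 is at 21498 CPM or more in every head and leg library and at or under 0.274 CPM in larval sections, Nplp4 is highest in larval sections, and NPF and ITP are higher in TRAP than in control in heads.

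The processing genes gave no call in either axonal preparation. In larval sections 0 of 15 passed, where of all genes 0.234% were higher and 0.012% were lower. The list summed to 121 to 410 CPM in larval TRAP samples and 229 to 337 CPM in larval controls. In legs 0 of the 14 tested passed, where of all genes 0.113% were higher and 0.12% were lower. The list summed to 632 to 660 CPM in TRAP legs and 689 to 706 CPM in control legs, and dimm had no count in any leg library. In heads the list summed to 1534 to 3961 CPM in TRAP samples and 745 to 780 CPM in controls.

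The difference between tissues was tested itself, as the genotype by tissue interaction. Heads and legs share the driver and the age but not the sex of the flies. Heads were taken whole, whereas the leg preparations held motor axons without their cell bodies. Between heads and legs, 12 precursors had a larger log2 fold change in heads, as did 2.54% of all genes. For 1, Nplp3, it was smaller in heads, as for 4.29% of all genes. The best supported was Dsk, at 6.19 in heads and 0.76 in legs (difference 5.40, SE 0.59, edgeR adjusted p = 0.00781). NPF was at 2.11 in heads and −0.23 in legs (difference 2.30, SE 0.36, edgeR adjusted p = 0.0109). Nplp3 was at −1.08 in heads and 0.38 in legs (difference −1.50, SE 0.29, edgeR adjusted p = 0.0151). The others were Crz, Capa, Dh31, Dh44, AstC, Tk, Orcokinin, Ms, Proc and Pdf.

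Several of these differences rest on few leg counts. Crz had 0 counts in each of the 3 TRAP leg libraries and 8 and 11 counts in the control legs, so its fitted difference of 12.92 depends on the prior count and is no measure of size. Capa, AstC, Ms and Pdf did not exceed 0.346 CPM in any leg library. The 6 precursors with no leg count have no leg value, and no difference is given for them. The number of differing precursors was 8 without head control replicate 1, 7 without leg control replicate 1 and 4 without leg control replicate 2, with Crz, Dsk and NPF in each of these sets. The Orcokinin difference was −1.19 without leg control replicate 2. Orcokinin had 0 counts in the leg control that then remained, so this value too depends on the prior count. Heads and larval sections differ in driver, stage and labelled batch, and the larval sections also lacked the motor neuron cell bodies. Between them 1 precursor had a larger log2 fold change in heads, Pdf, against 0.0178% of all genes (difference 10.65, SE 1.68, edgeR adjusted p = 0.0464). At an unadjusted p under 0.05 there were 15 of 42, against 5.23% of all genes. Pdf did not exceed 0.340 CPM in any larval library. The call was lost with relative log expression factors, with library size alone, with filterByExpr and in 10 of the 12 fits that left out 1 library, all but those without larval TRAP replicate 1 or larval control replicate 1. The labels give each tissue a batch of its own, so tissue and batch cannot be told apart.

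**Figure D5:**
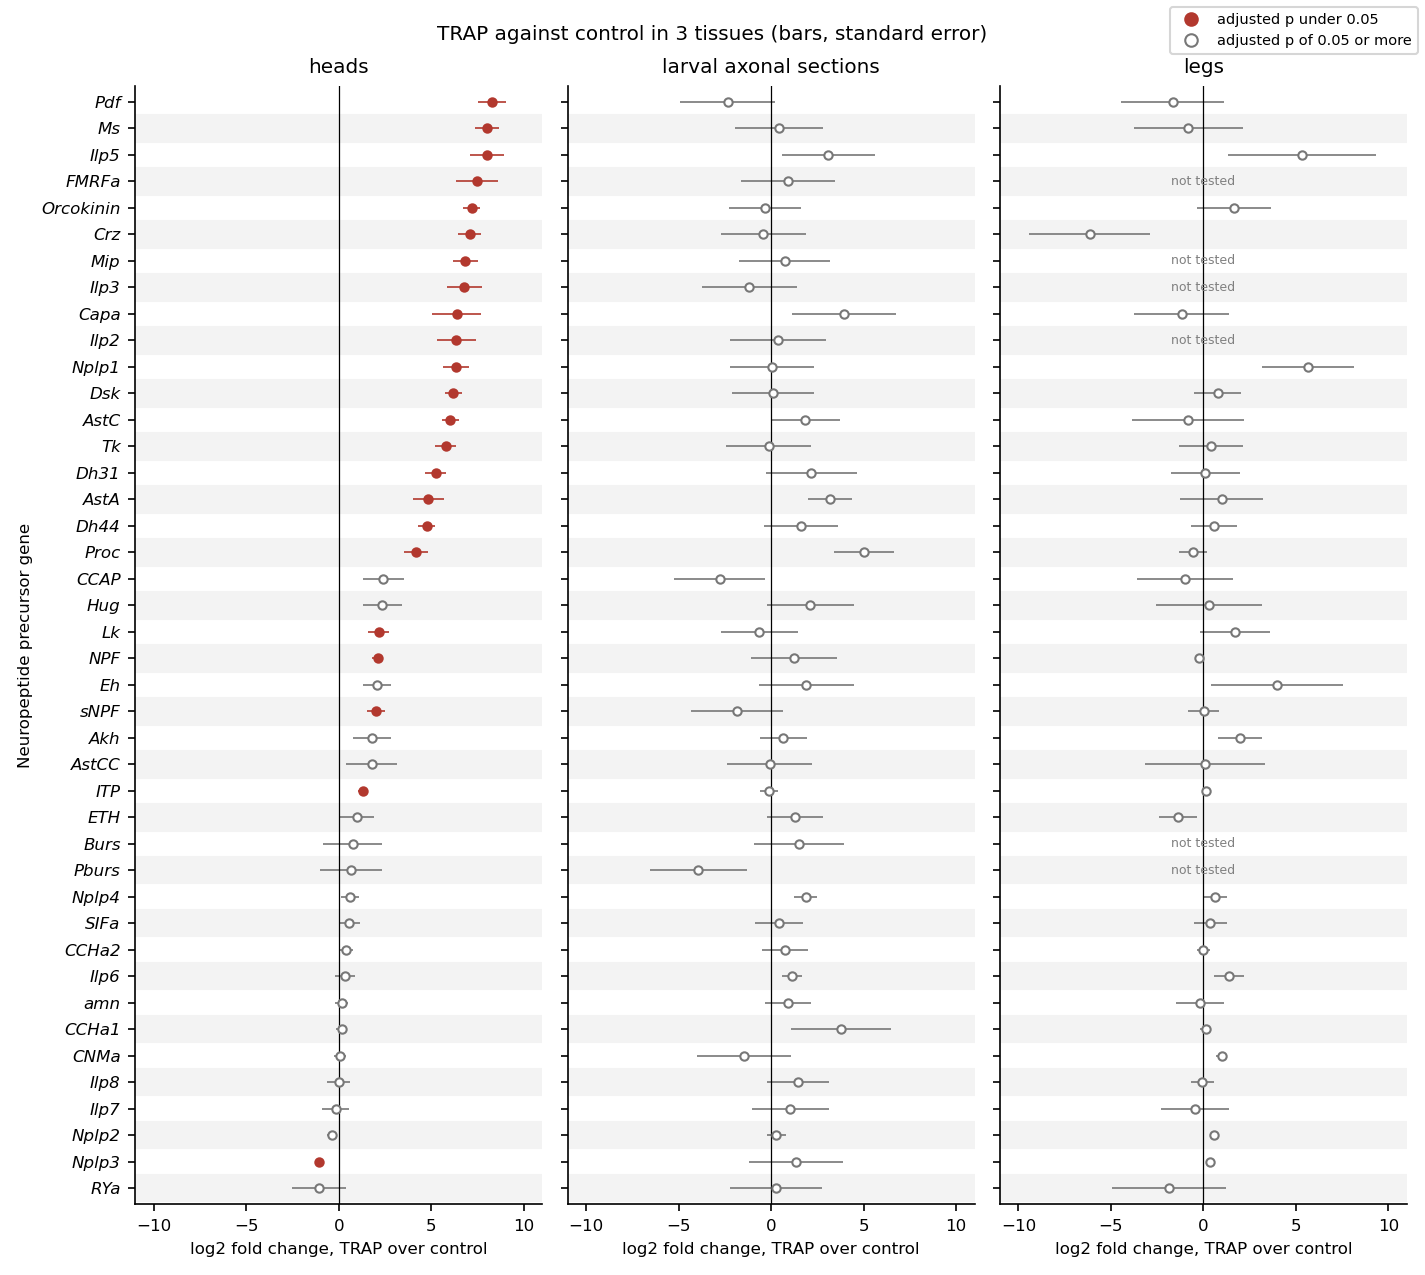
Log2 fold change of TRAP over control for each of the 42 precursors in heads, larval axonal sections and legs, with bars for the standard error and filled red points for an adjusted p under 0.05. Filled points occur in heads, 22 to the right of 0 and Nplp3 to the left, and in larval sections and legs all points are open, with wide bars for most genes.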

How the data were processed

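RNA bound to Flag-tagged ribosomes was measured in 17 samples. The authors prepared SMART-Seq cDNA libraries, used Trim Galore for trimming and HISAT2 2.2.1 for alignment to BDGP6 (per the submitters' processing notes, which also list SAMtools 1.12), and deposited raw counts per gene from SeqMonk, whole numbers without scaling. The sources used here do not give the strand setting, the use of introns, or the unit counted (a read or a pair). All columns were mapped by name.

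CPM was computed from library totals. Each tissue was fitted alone in edgeR 4.0.16 (R 4.3.3), on every gene with 1 count or more in any of its samples, with TMM scaling and the two-sided quasi-likelihood F-test, with Benjamini-Hochberg adjustment over all genes tested and a threshold of 0.05. Standard errors come from the F statistic. Tissues were compared by an interaction term. DESeq2 1.42.0 was an alternative, as were other scalings, filters and fits. P-values measure the spread between these samples. The code was tested on simulated data.

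The 42 precursors, the role groups, the processing list and the marker lists were chosen with earlier results of these data known. Named with values were the precursors that passed in any tissue or had a group mean of at least 10 CPM, while other precursors with values were added after these were seen. Of the precursors, 41 were matched to the BDGP6 annotation (Ensembl) by gene ID and 1, Nplp2, by symbol and span, and all 42 had the same span as in the tables. No 2 libraries of a group were copies.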

Additional observations from a re-analysis of the deposited data

Results flagged for a closer look

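The difference in log2 fold change between heads and legs passed the test of the interaction itself in 13 precursors. The value for heads minus legs was 12.92 for Crz, 9.81 for Pdf, 8.76 for Ms, 7.53 for Capa, 6.90 for AstC, 5.52 for Orcokinin, 5.40 for Dsk, 5.38 for Tk, 5.11 for Dh31, 4.68 for Proc, 4.16 for Dh44, 2.30 for NPF and −1.50 for Nplp3. For Crz it depends on the prior count, since the TRAP legs had no count. Pdf, Ms, Capa, AstC and Dh31 did not exceed 0.349 CPM in any leg library, so their values also rest on few leg counts. For heads minus larval sections the test was passed by Pdf, at 10.65.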

How the results depend on the processing

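In heads, 22 precursors were higher, 19 to 22 with any 1 library left out and 6 in one fit of all 3 tissues. Nplp3 was the 1 that was lower, against 0 with library size alone and 0 in the fit of all 3 tissues. The cause was not tested. In larval sections 0 to 1 were higher with 1 library left out (Nplp4 without TRAP replicate 1, Proc in 4 other fits), against 0 in the full set and 0 in the 4 libraries with the fewest genes at 0, a choice made after seeing the data. In legs 1 was higher by DESeq2, against 0. Heads and legs differed in 13 precursors, and in 4 to 14 with 1 library left out. Heads and larval sections differed in 1, in 0 to 4 with 1 library left out, and in 0 with relative log expression factors, library size alone, filterByExpr or a replicate block.

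With 1 library left out, some log2 fold changes took either sign. They ran from −0.16 to 0.34 for CCHa1 in heads, −0.73 to 0.14 for ITP, −2.46 to 6.38 for Proc and −0.11 to 0.58 for Nplp2 in larval sections, and −0.16 to 0.45 for ITP, −0.57 to 0.90 for CCHa2 and −0.024 to 9.05 for Nplp1 in legs. The difference of Orcokinin between heads and legs ran from −1.19 to 6.50. The lowest came without leg control replicate 2, where the remaining leg control had 0 counts and the value depends on the prior count. Nplp2 also changed sign in heads, to 0.086 with library size alone, and in larval sections, to −0.14 in the 4 libraries.

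Replicate numbers were not shown to pair the samples. The correlation of deviations between same-numbered samples was 0.0823 to 0.282 in heads, −0.513 to −0.00406 in larval sections and 0.0372 to 0.0581 in legs. Between samples of different number it was −0.293 to 0.211, −0.388 to 0.471 and −0.0581 to 0.0212. In heads these ranges overlapped, which does not settle whether the samples were paired. In legs the deviations of the 2 controls from their own mean are opposite by construction, so the leg correlations cannot show pairing. The replicate numbers are those of the sample titles, which in larval sections and legs do not follow the library names. With the number as a replicate block, 23 precursors were higher in heads (CCAP added) and 1 lower, 14 differed between heads and legs (AstC and Capa lost, CCAP, Nplp1 and sNPF added), and Proc in larvae (−0.66), Nplp1 in legs (−0.13) and CCHa2 in legs (0.14) changed sign.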
